A study of Mus musculus with 4 samples.

Results

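The mucolipins are a family of cation channels encoded in the mouse by Mcoln1, Mcoln2 and Mcoln3, and their mRNAs were followed here across 4 cultured melanoma lines. The members were chosen by gene symbol, with every probe of each gene. This gave 3 of the 15694 gene symbols in the table and 3 of its 33012 probes, 1 for each gene. The family was taken up because Mcoln3 had already been seen to differ strongly between these arrays, so the levels below are a description and not a test.

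B16, which the labels also call B16F1, is the parental mouse melanoma line of the C57Bl6 strain. Its cells were injected intradermally into C57BL6 mice, and the lymph node metastases gave the line B16-RI. B16-RI was injected in the same way, and lymph node metastases of that round gave B16-RII and lung metastases gave B16-RIIL. The labels name no transgene or drug for any line, each was grown in DMEM with fetal bovine serum, and each RNA was a pool of 2 passage numbers, so every value stands for cultured cells and not for a tumor or an organ. Total RNA was copied into digoxigenin-labeled cRNA and measured on mouse genome arrays of Applied Biosystems, on which every probe gives 1 chemiluminescence signal. The values come from 1 array per line, since the second arrays in the table match no labelled sample and were not used, and this allows no test between lines and limits how precise any value can be.

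Mucolipins are members of the transient receptor potential (TRP) superfamily that sit mainly in the membranes of lysosomes and endosomes, where they let calcium and other cations out of the organelle lumen. They are opened by the lysosomal phosphoinositide PI(3,5)P2, and the calcium released by mucolipin-1 is known to act on calcineurin and through it on TFEB, a transcription factor of lysosomal genes. Loss of human MCOLN1 causes the lysosomal storage disease mucolipidosis type IV, and a gain-of-function mutation of mouse Mcoln3 is the cause of the varitint-waddler phenotype, with deafness and loss of pigment cells from the coat and inner ear.

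The DNA before the starts of the 3 genes is shown because TFEB, TFE3 and MITF, factors of lysosomal and pigment cell genes, recognise E-boxes with the core CACGTG. The sequences are from RefSeq (GRCm38.p6), all on the plus strand and read 5′ to 3′, and each ends at the base before the annotated start. The windows are chr8:3500399-3500518 for Mcoln1, chr3:146150054-146150173 for Mcoln2 and chr3:146121671-146121790 for Mcoln3. Capitals mark CACGTG and the flanking bases that complete TCACGTG on either strand.

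Mcoln1: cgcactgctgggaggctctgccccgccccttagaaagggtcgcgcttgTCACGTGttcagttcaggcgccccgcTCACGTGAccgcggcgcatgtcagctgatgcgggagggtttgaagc
Mcoln2: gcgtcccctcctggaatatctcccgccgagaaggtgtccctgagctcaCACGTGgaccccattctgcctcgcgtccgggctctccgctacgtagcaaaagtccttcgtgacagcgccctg
Mcoln3: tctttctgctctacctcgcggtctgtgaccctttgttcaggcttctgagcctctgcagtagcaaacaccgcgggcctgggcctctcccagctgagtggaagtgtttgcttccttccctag

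CACGTG was searched on both strands in the 250 bases before each start, of which the 120 nearest are printed. The Mcoln1 window held it at 2 places, with first bases at -71 and -45, and both are also matches to the longer TCACGTG, which contains it. The Mcoln2 window held CACGTG at -72 without the added T, and the Mcoln3 window held neither. TCATGTG, the related M-box, was found in none of the 3 windows. Of 32851 such windows in the RefSeq table, 6.02% held CACGTG, 3.13% TCACGTG and 3.25% TCATGTG. The Mcoln1 window had 61.6% G and C with 21 CpG dinucleotides, the Mcoln2 window 64.4% with 20 and the Mcoln3 window 58.0% with 10, beside a median of 52.4% G and C over all windows. A match is a run of letters and not a measured binding site. The RefSeq records of Mcoln2 and Mcoln3 begin before the starts used here, and windows before other starts were not searched.

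The authors deposited for each array a raw signal, a normalized signal, a signal-to-noise ratio (S/N) and a flag. A probe was taken as detected where S/N was at least 3 and the flag at most 5000, the limits named in the study's methods. Between 13872 and 14855 probes were detected per array, 11604 on all 4 arrays and 18678 on at least 1. The normalized signal was found to be the raw signal divided by 1 of 2 constants per array, for 2 sets of 16524 and 16488 probes. On this scale the typical probe detected everywhere lay above its B16 signal, and the median difference was 0.21 log2 units for B16-RI, 0.41 for B16-RII and 0.22 for B16-RIIL. The shifts differed between the probe sets, with medians of 0.39, 0.41 and 0.46 in set 1 and 0.069, 0.42 and -0.0084 in set 2. Signals of different probes are not comparable as levels, so values are compared between lines, for 1 probe or for the same set of probes, and not between probes.

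The lines carried pigment cell mRNAs. Melanocyte genes with a probe were Mitf, Dct, Tyr, Tyrp1 and Pmel, 5 of the 7 markers listed, and all 5 were detected on every array. Summed over these genes, B16 had a normalized signal of 5632, B16-RI of 6896, B16-RII of 6715 and B16-RIIL of 6951, and none differed from B16 by as much as 2-fold. Of 7 leukocyte markers, 3 were detected on B16 and 1 on each passaged array, with summed signals of 61.5, 70.3, 84.6 and 64.2, nearly all of it Cd79a, and the defining genes Ptprc, Cd3e, Cd14 and Adgre1 were detected on none. Of 3 endothelial markers, Pecam1 was detected on B16-RII and B16-RIIL at 2.44 and 1.02, and Cdh5 and Lyve1 on none. Their sums were 1.46, 2.27, 3.58 and 1.84, and over detected markers alone 0, 0, 2.44 and 1.02. The sums of the other lists likewise include signals of undetected markers. The 3 fibroblast markers summed to 10.2, 17.1, 10.3 and 20.2, and Pdgfra was detected on none. Col1a2 led this sum at 6.32, 14.96, 7.40 and 16.66, 2.37-fold above B16 on B16-RI and 2.64-fold on B16-RIIL, while Col1a1 was detected on B16 at 3.5 and not on B16-RI at 1.36. The keratinocyte and lung lists held 2 markers each. Krt5 and Sftpc were detected on none, Krt14 on all arrays but B16-RI with -1.18 log2 units from B16 on B16-RIIL, and Scgb1a1 on B16-RIIL alone at 2.59. The part of these cells in the results below was not tested. In RNA of a whole culture, fewer cells that express a gene and less of its RNA per cell cannot be told apart.

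Mcoln3 was the member that differed. It encodes mucolipin-3, the channel of endosomes and lysosomes that is best known from hair cells and melanocytes. Its probe (451454, gene mCG11814.3, set 1) gave a normalized signal of 0.45 in B16, 1.13 in B16-RI, 7.73 in B16-RII and 29.97 in B16-RIIL. The raw signals were 167.71, 415.5, 4547.92 and 14722.8, and the S/N was -1.26, 1, 21.08 and 54.08. The probe was therefore below detection on B16 and B16-RI and far above it on both lines of the next round, and no flag passed 1. Among the markers of other cell types, Pecam1 was detected on the same arrays as Mcoln3, at 2.44 on B16-RII and 1.02 on B16-RIIL. Scgb1a1 was detected on B16-RIIL alone, at 2.59. Col1a2 was detected on all arrays and was highest on B16-RIIL, followed by B16-RI. The part of other cells in the Mcoln3 signal was not tested.

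Because the B16 and B16-RI signals were at background, the differences from them are given as bounds. Each is taken against a reference, the higher of the measured signal and the lowest signal of any detected probe on that array. That lowest signal was 0.31 on B16 and 0.42 on B16-RI. The mRNA could lie above its reference, as undetected probes reached higher signals, such as Krt5 at 3.83 on B16. A bound or "at least" is meant here and below against this reference and is not a strict limit. Against the B16 reference Mcoln3 was 17.2-fold higher on B16-RII, or 4.10 log2 units, and 66.6-fold higher on B16-RIIL, or 6.06 log2 units. Against the B16-RI reference it was 6.84-fold higher on B16-RII and 26.5-fold higher on B16-RIIL. No fold is given between B16-RI and B16, since neither array detected the probe.

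B16-RII and B16-RIIL both detected Mcoln3, so their difference is a measured value. The lung line was 3.88-fold above the lymph node line of the same round, or 1.95 log2 units. Of the 13018 probes detected on both arrays, 7 had a larger difference in that direction, a rank that describes a member taken up for its differences and tests nothing. Against the median of its own probe set the difference was 1.90. No replicate array of these lines was used, so the spread between cultures behind this value is unknown.

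Mcoln1 differed far less. It encodes mucolipin-1, the widely expressed lysosomal channel of the family. Its probe (913980, gene mCG11572.2, set 2) gave a normalized signal of 23.89 in B16, 19.05 in B16-RI, 29.73 in B16-RII and 31.65 in B16-RIIL, from raw signals of 9300.56, 7427.77, 14509.8 and 15774.2. It was detected on all 4 arrays, with S/N between 37.65 and 56.77. The order from low to high was B16-RI, B16, B16-RII and B16-RIIL, an order shown by 469 of the 11604 probes detected everywhere, or 4.04%. The highest signal was 1.66 times the lowest, a range of 0.73 log2 units, and 57.0% of those probes had a smaller range.

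Against B16 the Mcoln1 probe was 0.797 times as bright on B16-RI, 1.24 times on B16-RII and 1.32 times on B16-RIIL, differences of -0.33, 0.32 and 0.41 log2 units. Relative to the median of its own probe set these were -0.40, -0.082 and 0.42. On B16-RII the probe was thus above B16 in the deposited values by less than the typical probe. Its larger contrasts were against B16-RI, with 0.64 log2 units on B16-RII and 0.73 on B16-RIIL, while B16-RII and B16-RIIL differed by 0.090.

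Mcoln2 was highest on B16 and lowest on B16-RIIL. It encodes mucolipin-2, a channel of recycling endosomes and lysosomes described mainly in lymphoid and other immune cells. Its probe (927195, gene mCG11811.2, set 2) gave a normalized signal of 12.54 in B16, 11.43 in B16-RI, 10.94 in B16-RII and 8.88 in B16-RIIL, from raw signals of 4881.46, 4454.74, 5338.39 and 4427.32. S/N lay between 17.16 and 47.81, so the probe was detected on all 4 arrays. From B16 through B16-RI and B16-RII to B16-RIIL each signal was below the one before, a pattern shown by 182 of 11604 probes, or 1.57%. The raw signal did not follow this order, as it was highest on B16-RII.

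The differences of Mcoln2 from B16 were -0.13, -0.20 and -0.50 log2 units on B16-RI, B16-RII and B16-RIIL, so the B16 signal was at most 1.41 times that of a passaged line. Relative to the median of its probe set they were -0.20, -0.59 and -0.49. The range over the 4 arrays was 0.50 log2 units, and 24.2% of probes detected everywhere had a smaller range, beside a median range of 0.68 over those probes.

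**Figure D1:**
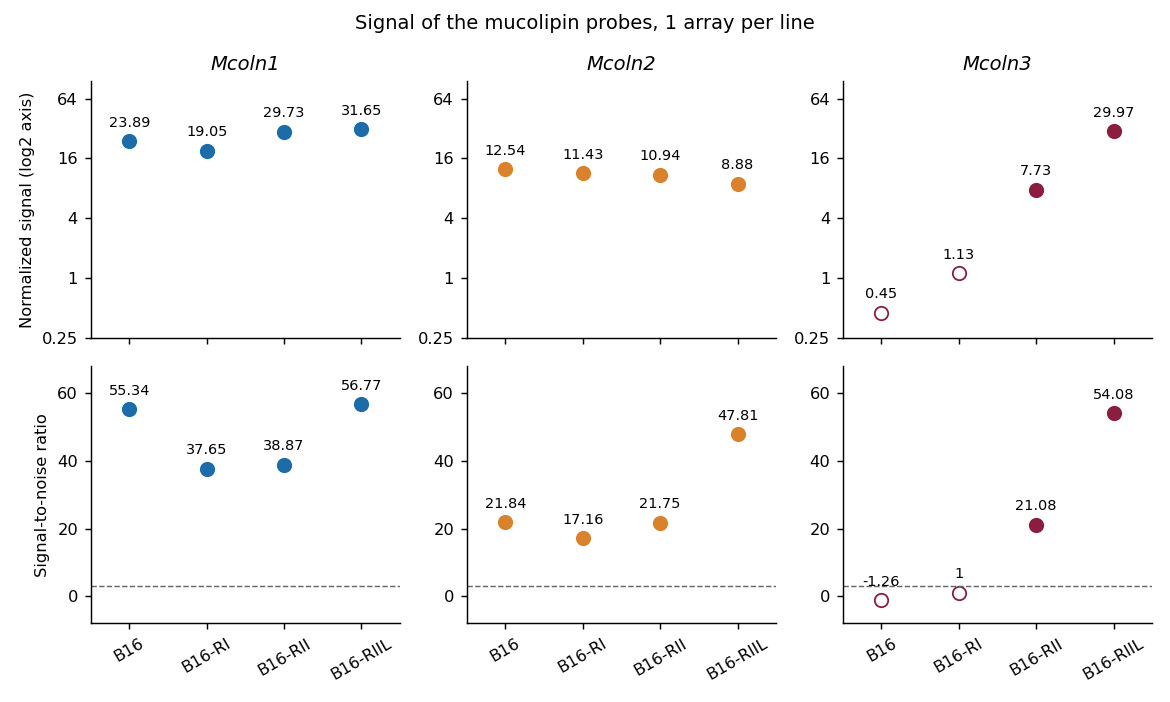
The upper panels plot the deposited normalized signal of each mucolipin probe on a log2 axis and the lower panels its signal-to-noise ratio, 1 array per line; open points were not detected and the dashed line is the S/N limit of 3. Mcoln1 stays between 19.05 and 31.65 and Mcoln2 between 8.88 and 12.54, while Mcoln3 goes from 0.45, not detected, on B16 to 29.97 on B16-RIIL.

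A probe was called higher or lower where the difference reached 1 log2 unit and the brighter array detected it. Against B16, 0 of the 3 members were called higher on B16-RI, where 10.1% of all probes detected on either array were, 1 on B16-RII, where 13.1% were, and 1 on B16-RIIL, where 12.7% were. The member called was Mcoln3 each time. No member was called lower on any array, beside 9.25%, 7.54% and 8.39% of all probes. Mcoln3 was also called higher on B16-RII and on B16-RIIL than on B16-RI, where 9.96% and 10.8% of probes were higher and 6.69% and 8.24% lower. It was called higher on B16-RIIL than on B16-RII as well, where 7.59% of probes were higher and 9.35% lower. Since the family was chosen with the Mcoln3 contrast known, nothing is read from these counts.

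The background shares moved with the scaling of the arrays. With the probe sets centred separately, 7.92% of probes were higher and 11.2% lower on B16-RI, 6.57% and 11.3% on B16-RII, and 8.10% and 10.3% on B16-RIIL. With 75th percentile scaling the shares on B16-RII were 7.52% and 10.9% and those on B16-RIIL 9.21% and 10.8%, and with quantile normalization those on B16-RII were 9.63% and 9.05%. The calls of the members were the same under each of these scalings.

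Detection on B16-RII and B16-RIIL but on neither B16 nor B16-RI, the pattern of Mcoln3, was shown by 438 of the 18678 probes detected anywhere, or 2.35%. A signal at least 2-fold higher on B16-RIIL than on B16-RII was added to this in 32 probes, or 0.171%. As Mcoln3 was taken up with its differences known, nothing is read from these shares. Mcoln1 and Mcoln2 belonged to the 62.1% of such probes that all 4 arrays detected.

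**Figure D2:**
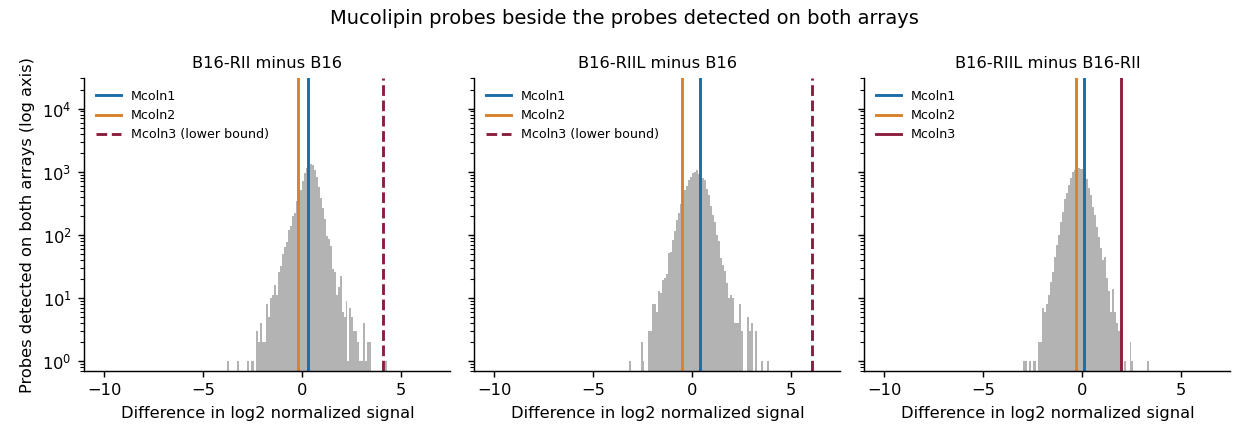
Grey bars count all probes detected on both arrays of a pair by their difference in log2 normalized signal, on a log count axis, and lines mark the mucolipin probes, dashed where the value is a lower bound. Mcoln1 and Mcoln2 lie inside the bulk of probes, while Mcoln3 is at 1.95 between B16-RIIL and B16-RII. Its bounds of 4.10 and 6.06 against B16 have no counterpart in the bars, which leave out probes that B16 did not detect.

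With 1 array per line in use, the measure of error taken here is the disagreement between 2 probes of the same gene for the same pair of arrays. Over the 518 to 552 genes with 2 probes detected on both arrays, the median disagreement was 0.31 log2 units for B16-RI against B16, 0.29 for B16-RII and 0.41 for B16-RIIL. Pairs of probes from different probe sets also carry the unequal shifts of the sets. Over genes with both probes in the same set the medians were 0.23, 0.29 and 0.32. A shift shared by all probes of an array cancels in the disagreement but stays in the difference of a member, so the shares below are a rough guide. The difference of Mcoln1 from B16 was exceeded by the disagreement of 48.7% of these genes on B16-RI, 46.5% on B16-RII and 50.0% on B16-RIIL. For Mcoln2 the shares were 74.2%, 64.4% and 40.0%. These shares are for the deposited values and depend on the scaling, since Mcoln2 on B16-RII lay at -0.78 log2 units from B16 after quantile normalization, -0.72 with 75th percentile scaling and -0.62 with the probe sets centred.

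In the contrasts of Mcoln1 with B16-RI, 17.0% of genes disagreed by more than its difference on B16-RII and 15.9% on B16-RIIL. Over the scalings described next, the first of these differences went from 0.64 log2 units down to 0.22, below the median disagreement of 0.30 for that pair of arrays. Between B16-RIIL and B16-RII, 85.9% of genes disagreed by more than Mcoln1 did and 57.1% by more than Mcoln2 did. None of 552 genes had probes that disagreed by as much as the 1.95 log2 units of Mcoln3 in that contrast. Since Mcoln3 was taken up for its differences between these arrays and the 552 genes were not, nothing is read from that comparison. This measure holds the error of probes and not that of cultures, and it cannot be had for the mucolipins themselves, which have 1 probe each. Probe sequences were not used here, and whether a mucolipin probe also binds the mRNA of a paralog was not tested.

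Each member was followed through 5 scalings of the same arrays, namely the deposited values, quantile normalization, median scaling, 75th percentile scaling and centring of each probe set. The bound on Mcoln3 lay between 3.68 and 4.25 log2 units on B16-RII and between 5.54 and 6.11 on B16-RIIL, and B16-RIIL was above B16-RII by 1.85 to 1.97. Mcoln1 kept B16-RI lowest and B16-RIIL highest under all 5, with 0.64 to 0.79 log2 units between them. The place of B16-RII was not kept, as Mcoln1 was 0.32 above B16 there in the deposited values and below it after quantile normalization (-0.30), 75th percentile scaling and centring of the probe sets. For Mcoln2 the difference of B16-RIIL from B16 ranged from -0.79 to -0.49 and that of B16-RII from -0.78 to -0.20. B16 stayed the highest line, but B16-RII replaced B16-RIIL as the lowest when the probe sets were centred.

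**Figure D3:**
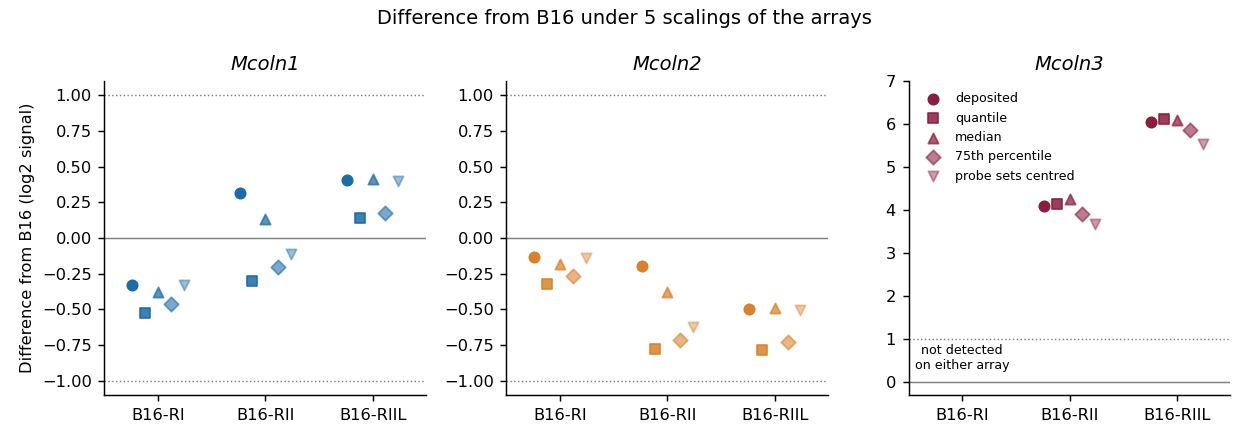
Each point is the difference of 1 mucolipin probe from B16 in log2 signal on a passaged array, and the marker shows which of 5 scalings was used; dotted lines lie at 1 log2 unit and the axis of Mcoln3 is longer. Mcoln1 on B16-RII changes sign, from 0.32 to -0.30, whereas Mcoln2 stays below 0 and Mcoln3 stays at 3.68 or more on both arrays that detected it.

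Mcoln2 and Mcoln3 are next to each other on chromosome 3, and no other gene with a probe lies between them in the RefSeq table, so their neighbourhood was read on the same arrays. Of the 10 genes with a probe on either side of the pair, 13 were detected on both arrays of each contrast with B16. Their median difference from B16 was 0.20 log2 units on B16-RI, 0.44 on B16-RII and 0.24 on B16-RIIL, beside 0.22, 0.44 and 0.25 over all genes. The highest value among the 13 was 1.00, on B16-RII. Rpf1, the 6th gene on the Mcoln2 side, was not among them, as it was not detected on B16 and B16-RI (0.52 and 0.57) and was detected on B16-RII at 1.79 and on B16-RIIL at 0.77, at least 1.78 and 0.57 log2 units above B16. The median over chromosome 3 was within 0.024 of that over all genes on each array.

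On the Mcoln3 side, 2410004B18Rik differed from B16 by 0.81, 0.74 and 0.80 log2 units on B16-RI, B16-RII and B16-RIIL. Bcl10, an adaptor of NF-kappaB signaling, differed by 0.52, 0.70 and 0.68, and Ddah1, which breaks down methylated arginines, by 0.01, -0.54 and -0.08. On the Mcoln2 side, the lysophosphatidic acid receptor gene Lpar3 was detected on no array. The centrosomal Ssx2ip differed by 0.03, 0.44 and 0.36 and the lysosomal chitobiase gene Ctbs by -0.26, 0.36 and -0.39.

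Mcoln1 lies on chromosome 8, near the end of the listed genes, with 4 genes on one side and 10 on the other that had a probe. The 7 detected neighbours had median differences from B16 of 0.26, 0.52 and 0.72 on the 3 passaged arrays. On B16-RIIL 6 of these 7 lay above the median of all genes, and the median over 432 genes of chromosome 8 was 0.61 there, 0.36 above that of all genes, against 0.024 and 0.052 on B16-RI and B16-RII. In the deposited values the Mcoln1 difference of 0.41 on B16-RIIL was below that chromosome median, which mixes both probe sets. Against the median of its own set it was 0.42, a value with another baseline that cannot be set against the 0.36 of the chromosome. The part of the chromosome in the Mcoln1 value was not tested.

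Of the nearest genes, the zinc finger gene Zfp358 differed by -0.01, 0.61 and 0.41 and Arhgef18 by 0.67, 1.01 and 0.74. Pex11g, a peroxisomal membrane protein gene, was detected on B16-RI alone, at least 1.37 log2 units above B16. On the other side Pnpla6, a lysophospholipase gene, differed by -0.41, 0.52 and 0.72, the repair gene Xab2 by 0.38, 0.44 and 1.01, and the Purkinje cell gene Pcp2 by 0.19, 0.45 and -0.03. Pnpla6, next to Mcoln1, had the same order of the 4 lines as Mcoln1.

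**Figure D4:**
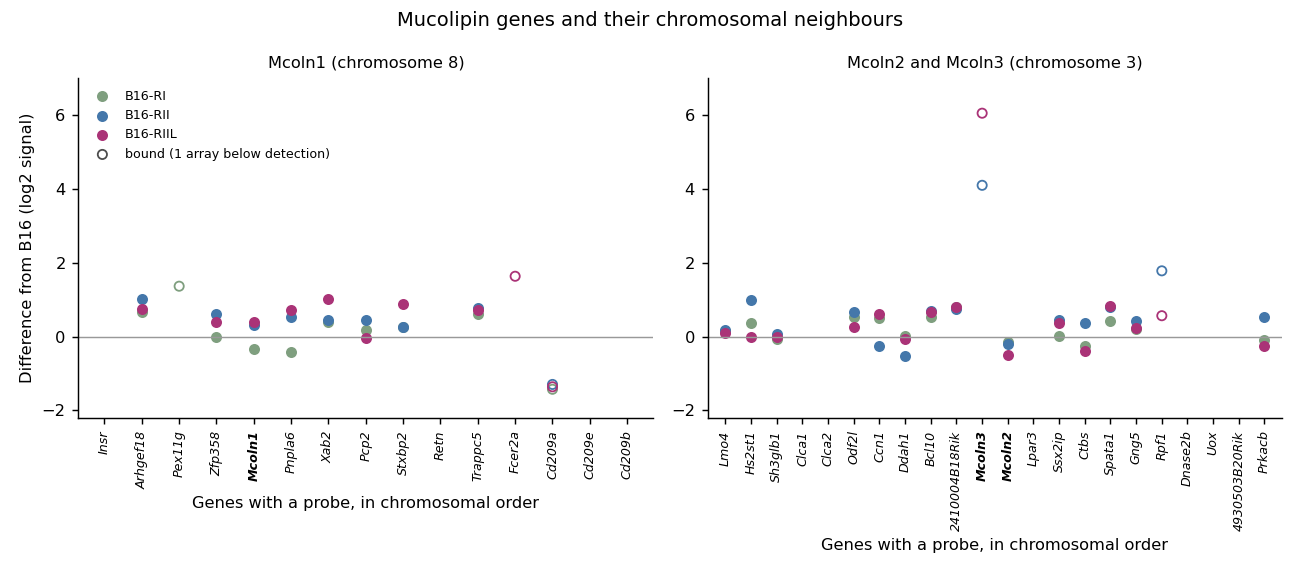
Differences from B16 in log2 signal are plotted for the mucolipin genes, in bold, and for the genes with a probe around them in chromosomal order, colored by passaged line; open points are bounds and genes without a point were not detected. Mcoln3 stands at 4.10 and 6.06 on chromosome 3 while Mcoln2 beside it lies between -0.50 and -0.13, and the highest neighbour of that pair is the bound of Rpf1 at 1.78 on B16-RII.

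Patterns close to those of the members were sought by the Euclidean distance between the 4 log2 signals of 2 probes, each centred on its own mean, over 4 arrays. Among 221 probes with a gene symbol that were detected on the same arrays as Mcoln3, the nearest was Fbp2, the muscle fructose bisphosphatase, at a distance of 0.45. Its normalized signals were 0.40, 0.80, 6.17 and 17.57 in the order B16, B16-RI, B16-RII and B16-RIIL. The next was Apobec2 at 1.56, with 0.23, 1.5, 17.74 and 30.65, a member of the cytidine deaminase family. Bcas1, Amhr2, the receptor of anti-Müllerian hormone, and Fabp3, a fatty acid binding protein, followed at 1.62, 1.69 and 1.77. The signals of all of these on B16 and B16-RI were below detection, so the distances rest in part on background.

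For Mcoln1, 8063 probes were candidates, and the nearest were A530083I02Rik, now Nbeal1, at 0.030, the annexin gene Anxa6 at 0.065 and the RNA helicase gene Dhx37 at 0.070, followed by Gpsn2, now Tecr, at 0.075 and BC026370, now Tmem63b, at 0.079. For Mcoln2 they were Trim14 at 0.038, the cytochrome c oxidase subunit gene Cox5b at 0.053 and Tm9sf4 at 0.066, followed by the ribosomal protein gene Rpl28 at 0.070 and 2210409E12Rik at 0.079. Of each 5, 4 came from probe set 2, as Mcoln1 and Mcoln2 do, and so share the constants of their arrays.

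The other genes of the pathway were read from 7 lists with 104 genes, of which 90 had a probe, 67 were detected on at least 1 array and 54 on all 4. Each gene was represented by its brightest probe. Of those detected on either array of a contrast, 2 were called higher and 3 lower than B16 on B16-RI, out of 63. On B16-RII 3 were higher and 0 lower out of 64, and on B16-RIIL 3 were higher and 3 lower out of 61. In percent these are 3.17 and 4.76, 4.69 and 0, and 4.92 and 4.92. The background over all genes was 8.04% higher and 6.89% lower on B16-RI, 12.2% and 5.41% on B16-RII, and 11.7% and 5.96% on B16-RIIL. Medians given below in the order B16-RI, B16-RII and B16-RIIL compare with 0.22, 0.44 and 0.25 log2 units over all genes.

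Enzymes of PI(3,5)P2, the lipid that opens the channels, had median differences from B16 of 0.16, 0.44 and 0.30 log2 units, and none of the 5 detected was called. Pikfyve, the kinase that makes the lipid, had normalized signals of 7.48, 8.23, 9.49 and 8.29 on B16, B16-RI, B16-RII and B16-RIIL, all within 0.34 log2 units of B16. Calcium effectors, among them calcineurin and calmodulin, had medians of 0.28, 0.34 and 0.37. Of the 7 detected, Pdcd6, a calcium-binding protein known to act with mucolipin-1, was called lower on B16-RIIL, where it was not detected and B16 was at least 2.83 times as bright, a call not made with an S/N limit of 5. Its signals were 1.53, 1.29, 1.82 and 0.54, so even its B16 level was near the detection limit.

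The MiT transcription factors and the nutrient sensing machinery on the lysosome had medians of 0.25, 0.39 and 0.51. Tfeb, the factor downstream of mucolipin-1, gave 4.54, 7.40, 5.80 and 5.88, a difference of 0.70 on B16-RI that did not reach the limit. Tfe3 gave 5.53, 4.45, 6.13 and 5.38. Mitf, the master factor of melanocytes and a relative of both, gave 6.37, 5.20, 6.45 and 5.96, and neither it nor Tfe3 differed from B16 by more than 0.31 log2 units. Lamtor2, a subunit of the Ragulator complex that anchors Rag GTPases, was the gene called in the deposited values. It was below detection on B16 and B16-RI at 1.03 and 1.21 and was detected on B16-RII at 3.60 and on B16-RIIL at 2.55, which is at least 1.81 and 1.31 log2 units above B16. Neither call was made with an S/N limit of 5, and centring the probe sets ended that on B16-RIIL (0.79). Like Mcoln3 it was detected only on the lines of the later round, and unlike Mcoln3 it was brighter on B16-RII. Rptor, the mTORC1 subunit raptor, had a bound of -0.94 on B16-RI and was called lower there under each of the other 4 scalings, down to a bound of -1.33 with centred probe sets.

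Other ion transport proteins of lysosomes and endosomes had medians of 0.015, 0.12 and 0.082. The two-pore channel genes Tpcn1 and Tpcn2, which encode the other main PI(3,5)P2-gated channels of these organelles, were detected on no array. Ostm1, the partner subunit of the lysosomal chloride transporter ClC-7, gave 20.35, 23.85, 34.10 and 41.27 and was called higher on B16-RIIL, by 2.03-fold, just past the limit. That call was lost with quantile normalization (0.79 log2 units), 75th percentile scaling (0.83) and centred probe sets (0.50). Clcn4, an endosomal chloride and proton exchanger, gave 11.14, 6.81, 9.36 and 5.56 and was called lower on B16-RIIL, at 0.499 times its B16 signal, a call lost with median scaling. Its relative Clcn5 was detected on B16-RII alone, at 2.64, and was called at least 4.33-fold higher there, but not with an S/N limit of 5 or with the median over all its probes.

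Transport proteins of melanosomes, which are lysosome-related organelles, had medians of -0.21, 0.26 and -0.26 over 4 detected genes. Oca2, the melanosomal anion channel gene behind the pink-eyed dilution coat color, gave 15.25, 5.23, 11.84 and 8.51. It was called lower on B16-RI, by 1.54 log2 units (-1.54), and the other passaged lines lay between B16-RI and B16. On B16-RIIL it was at -0.84 and was called lower with quantile normalization, 75th percentile scaling and centred probe sets. Atp7a, the copper pump, and the transporter genes Slc45a2 and Slc24a5 were detected on all arrays and not called.

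Of the other TRP channel genes, 20 of 25 had a probe, and 5 to 7 were detected on either array of each contrast. Trpm1, the melanocyte TRP gene named for its loss in melanoma, was not analysed here, as no probe carried its symbol. Trpm7, a channel fused to a kinase, gave 36.66, 49.93, 60.75 and 35.27, and Trpv2 gave 57.96, 45.08, 97.52 and 88.33, and both were detected on all arrays without a call. Trpv2 had the lowest signal on B16-RI and higher signals on both later lines, as Mcoln1 did, but was highest on B16-RII.

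Each call among the TRP genes was a bound. On B16-RI, Trpm8, the cold sensor, was called higher by at least 2.10 log2 units at a signal of 1.71, and Trpc2 and Trpm5 were called lower, with bounds of -2.10 and -1.68 log2 units, from B16 signals of 5.46 and 1.51. On B16-RII, Trpc1 was called higher by at least 1.90 at a signal of 1.16. On B16-RIIL, Trpa1 was called lower (-1.08) from a B16 signal of 0.76. With an S/N limit of 5 only the call of Trpm5 remained, and that of Trpa1 was also lost with quantile normalization. Other scalings added lower calls of Trpa1, on B16-RI under 2 of them and on B16-RII under 3, and of Trpc2 on B16-RIIL with centred probe sets. None of these 5 genes was detected on B16-RII and B16-RIIL alone, as Mcoln3 was.

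Lysosomal proteins of the CLEAR network, the set of genes with TFEB sites, had medians of 0.32, 0.56 and 0.39, which is 0.098, 0.13 and 0.13 above all genes. Lamp1, the main glycoprotein of the lysosomal membrane, gave 305.01, 384.59, 478.03 and 434.89 and was not called. Map1lc3b, the LC3 protein of autophagosomes, gave 148.79, 231.52, 220.36 and 347.08 and was called higher on B16-RIIL, by 2.33-fold. That call was lost with quantile normalization (0.99 log2 units), with centred probe sets (0.70) and when the median over all probes of the gene was taken. Neu1, the lysosomal sialidase, was detected on B16-RI alone, at 2.61, at least 4.58-fold above B16. No gene of this list was called lower in the deposited values, and centred probe sets gave 1 such call, of Wipi1 on B16-RII.

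**Figure D5:**
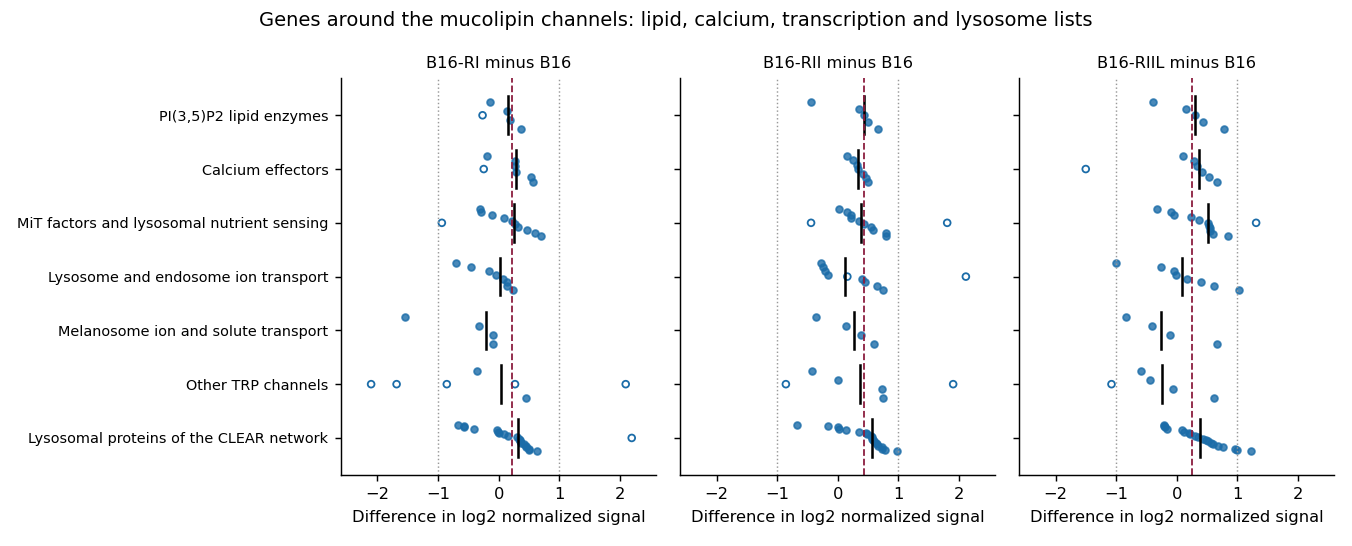
Each point is 1 gene of a list and shows its difference from B16 in log2 normalized signal on a passaged array, open where the value is a bound; black bars are list medians, the dashed line is the median of all genes and dotted lines lie at 1 log2 unit. Nearly all genes lie between the dotted lines, and 3 are called higher and 3 lower on B16-RIIL.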

How the data were processed

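RNA of 4 cultured B16 melanoma lines was measured on Applied Biosystems arrays, and 1 array per line was used. The authors deposited the raw intensity and a normalized intensity of each probe, with 2 scores of the analyzer, a signal-to-noise ratio (S/N) and a flag. The methods name quantile normalization in limma, but the deposited intensity was the raw intensity divided by 2 constants per array. The 16 columns of these arrays were used. Another 44 columns were not, namely 20 headed as second arrays of the lines, which match no labelled sample, and 24 of ratios and log2 values deposited by the authors, which hold their own comparisons.

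Differences between lines were taken on the log2 scale of the deposited normalized intensity, with no pseudocount. Detection required S/N to reach 3 and the flag not to pass 5000. A call required at least 1 log2 unit (2-fold) and detection on the brighter array. Where 1 array did not detect a probe, the difference is a bound, taken against the reference signal described above and not a strict limit. No test was run, because 1 array per line was used. A gene of a list was represented by its brightest probe.

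The members and the gene lists were chosen with earlier results of these data known. Genes named were the members, called genes of the lists, Mitf, Tfeb, Tfe3, Tpcn1, Tpcn2, Trpm1, Pikfyve and Lamp1, the 3 nearest neighbours with a probe on either side, and the 5 probes nearest in pattern to each member. Genes named outside this rule (Rpf1, Rptor, Wipi1, Slc45a2, Slc24a5, Atp7a, Trpm7, Trpv2 and the cell type markers) were named after their values were seen. The RefSeq table of GRCm38.p6 matched 16186 of 17302 probes with a symbol. The genome build behind the arrays is not given in the sources used here, so coordinates are given only for RefSeq promoters. Alternatives were other scalings, detection limits, size limits, probes per gene and numbers of neighbours. Python 3.11.15, numpy 2.4.6, pandas 2.3.3 and matplotlib 3.10.9 were used. The calling code was run on simulated data, with differences above the size limit set into bright probes. That run checks the code alone and says nothing on the error of these arrays or on probes near background.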

Additional observations from a re-analysis of the deposited data

How the results depend on the processing

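Of 206 alternative values for the main results, 174 lay within 1.5-fold of the reported value, and no call of a member changed direction. This share is no measure of robustness. The differences of Mcoln1 and Mcoln2 could not move with the detection limits, as both probes were far above them. A value within 1.5-fold could also change sign, as Mcoln1 on B16-RII did under some scalings. The Mcoln3 calls on B16-RII and B16-RIIL were made under each scaling, detection limit and size limit run, with bounds of 3.68 to 4.25 and 5.54 to 6.11 log2 units. With no detection filter 1 member, Mcoln3, was also called higher on B16-RI. Quantile normalization put Mcoln1 on B16-RII at -0.30, 75th percentile scaling at -0.21 and centred probe sets at -0.11. The median of the genes around Mcoln2 and Mcoln3 also moved below 0 with quantile normalization, to -0.071, -0.069 and -0.10 on the 3 passaged arrays. No paired analysis was possible because 1 array per line was used, so the lines share fewer than 2 replicate numbers, and for the same reason none could be left out. Dim probes limit the rest: detection of Mcoln3 on B16 and B16-RI was not shown at this sensitivity, which does not show absence of the mRNA.

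Counts of called genes over the 7 lists moved more. Genes lower on B16-RI numbered 5 with quantile normalization and 5 with 75th percentile scaling, and genes higher on B16-RIIL numbered 1 with quantile normalization, 5 with median scaling and 0 with centred probe sets. Genes lower on B16-RII numbered 1 with median scaling, 1 with 75th percentile scaling and 2 with centred probe sets, and genes lower on B16-RIIL 5 with centred probe sets. With S/N of at least 5 there was 1 gene higher on B16-RI, 0 higher on B16-RII and 1 lower on B16-RIIL. With S/N of at least 2 there were 7 higher and 1 lower on B16-RII and 5 lower on B16-RIIL. Without a detection filter 4 were higher on B16-RI, 8 higher and 2 lower on B16-RII, and 8 higher and 6 lower on B16-RIIL. A 4-fold limit left 1 lower on B16-RI, 1 higher on B16-RII and 0 higher and 0 lower on B16-RIIL. A 1.5-fold limit gave 5 higher and 7 lower on B16-RI, 19 and 2 on B16-RII, and 15 and 5 on B16-RIIL. The cause of these shifts under the scalings was not tested, while the other limits admit more or fewer genes by their construction.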
